A study of Mus musculus with 32 samples.

Results

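ATAC-seq, in which a transposase cuts and tags accessible DNA for sequencing, was used at day 10 of mouse fibroblast reprogramming to ask which sites depended on the level of CTCF and of Smarca5. The sites described here were open in the control, missing when CTCF was overexpressed, and open again when Smarca5 was knocked down on top of CTCF overexpression. The deposited peak lists of the 3 day 10 groups were pooled and overlapping intervals were merged into 83944 sites, and a site was placed in a list when it overlapped a peak of that list by at least 1 bp. Members were chosen by presence and absence in these 3 lists: a site was a member when it lay in the oeControl and the oeCTCF_shsmarca5 list and not in the oeCTCF list. There were 6945 members, 8.27% of all day 10 sites.

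All groups came from mouse embryonic fibroblasts (MEFs). Those after day 0 were reprogrammed by the 4 factors Oct4, Sox2, Klf4 and c-Myc (OSKM), in medium with vitamin C after infection. The labels name OG2-MEFs, which carry a green fluorescent protein (GFP) reporter of Pou5f1, as the cells that received the CTCF vector pMXs-CTCF and the shRNAs by retrovirus. The 3 day 10 groups were OSKM with control overexpression (oeControl), OSKM with CTCF overexpression (oeCTCF), and OSKM with CTCF overexpression and Smarca5 shRNA (oeCTCF_shsmarca5), each with 2 samples. The labels give no control shRNA for the first 2 of these groups. The 12 lists outside the rule were control shRNA (shLuci) and CTCF shRNA (shCTCF) at day 0, in sorted Thy1+ cells (3 samples, days 3, 6 and 9), SSEA1-Thy1- and SSEA1+ cells (2 samples each, days 6 and 9) and GFP+ cells (2 samples, day 12), plus unsorted day 12 cells with shLuci or Smarca5 shRNA (2 samples each). The sorted cells came from a doxycycline-inducible lentiviral OSKM system. Each group was represented by 1 peak list for all its samples, the depth behind each list is unknown, and a longer list can hold more sites with no change in the cells. No value had a replicate check. The test over 5 pairs of lists compared 5 different populations, each with 1 list per shRNA, and replicates none of them. The 3 intermediate populations were in part from the same days, so the pairs may not be independent. The 95% intervals were computed by the exact Clopper-Pearson method, and they describe only the error of counting sites.

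CTCF is a zinc finger protein that binds insulators and domain borders and, with the cohesin ring, anchors chromatin loops. Smarca5 (also called SNF2H) is the ATPase of the ISWI chromatin remodelling complexes, which slide and space nucleosomes, and it is known to help CTCF bind and to order the nucleosomes around CTCF sites. During reprogramming, open sites of the fibroblast close and sites of the pluripotent cell open, and the sorted populations follow that course from Thy1+ cells, which keep a fibroblast surface marker, through SSEA1-Thy1- and SSEA1+ cells to GFP+ cells, in which the Pou5f1 reporter is on.

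Members rarely lay at transcription starts, so the few that did are shown first, since sequence was at hand for promoter windows only. Of 32851 RefSeq promoter windows (GRCm38.p6, from 250 bases before to 50 after a start), 103 overlapped a member, which is 0.314%. The 250 bases before the start are printed for 4 of the 15 protein-coding genes that had a member at the start and no oeCTCF peak within 10 kb. The 4 are examples and do not stand for the rest. The share of all 103 windows with each motif is given further below. Capitals mark matches on either strand to the AP-1 site TGANTCA, the TEAD site GGAATG and the octamer ATGCAAAT that Oct4 can bind. In Shroom4, a regulator of the actin cytoskeleton, and Mtmr2, a phosphoinositide phosphatase, the member covered all 250 printed bases. In Mtmr2 an octamer match and a TEAD match overlap. Cntn6 encodes a contactin, an adhesion protein of neurons, and its member covered 231 of the printed bases. Lrrc17 encodes a leucine-rich repeat protein and had no match to any of the 6 motifs searched. Its member covered 95 of the printed bases, at their downstream end, and the rest lies outside the peak. It is shown because its site was held in all 12 lists outside the rule.
Shroom4, chrX:6415492-6415741, plus strand: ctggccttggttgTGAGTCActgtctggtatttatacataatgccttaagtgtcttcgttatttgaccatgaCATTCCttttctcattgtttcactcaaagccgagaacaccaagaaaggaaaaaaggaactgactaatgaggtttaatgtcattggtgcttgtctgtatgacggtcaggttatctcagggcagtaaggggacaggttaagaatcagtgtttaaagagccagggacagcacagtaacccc
Mtmr2, chr9:13765704-13765953, plus strand: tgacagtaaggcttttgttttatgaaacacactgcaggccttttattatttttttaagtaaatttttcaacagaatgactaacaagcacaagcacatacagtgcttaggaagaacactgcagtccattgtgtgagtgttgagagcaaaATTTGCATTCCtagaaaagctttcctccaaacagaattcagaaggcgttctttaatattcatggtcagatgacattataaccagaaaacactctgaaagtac
Cntn6, chr6:104492794-104493043, plus strand: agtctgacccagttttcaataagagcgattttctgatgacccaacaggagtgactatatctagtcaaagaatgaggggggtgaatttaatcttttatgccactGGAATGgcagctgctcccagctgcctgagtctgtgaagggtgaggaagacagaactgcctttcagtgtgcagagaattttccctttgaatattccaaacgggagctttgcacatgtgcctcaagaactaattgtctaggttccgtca
Lrrc17, chr5:21543277-21543526, plus strand: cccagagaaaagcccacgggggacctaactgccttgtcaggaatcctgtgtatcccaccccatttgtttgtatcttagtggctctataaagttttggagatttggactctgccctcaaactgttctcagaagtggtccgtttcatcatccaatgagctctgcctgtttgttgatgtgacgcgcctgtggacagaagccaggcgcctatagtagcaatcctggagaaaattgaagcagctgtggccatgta

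Members also lay beside microRNA genes, and 2 sets were singled out after their values were seen, because the first is typical of mesenchymal and the second of epithelial cells. Both Mir199a genes, which make the same mature miR-199a, had a member at or beside the hairpin, and so had the Mir200c and Mir141 cluster, whose products repress the mesenchymal factors Zeb1 and Zeb2. The mature sequences are from RefSeq (GRCm38.p6), with the seed, bases 2 to 8, in capitals.
mmu-miR-199a-5p: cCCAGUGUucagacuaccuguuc
mmu-miR-199a-3p: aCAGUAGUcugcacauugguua
mmu-miR-200c-3p: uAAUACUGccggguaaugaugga
mmu-miR-141-3p: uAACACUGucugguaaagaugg

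The oeControl list held 72414 of the day 10 sites, the oeCTCF list 67561 and the oeCTCF_shsmarca5 list 66321. Of the oeControl sites, 12205 (16.9%) were missing from the oeCTCF list, and members made up 56.9% of these (56.0% to 57.8%) and 9.59% of all oeControl sites. The other 5260 sites missing from oeCTCF were in the oeControl list only. In the opposite direction, 7720 sites were in the oeControl and oeCTCF lists and missing with Smarca5 shRNA. Of the 59434 sites present in both other lists, 11.7% were missing from oeCTCF. These counts restate the rule and carry no test.

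The rule asks for at least 1 bp of overlap. The member nearest to an oeCTCF peak lay 3 bp from it, and the next 8, 18, 27 and 29 bp away. Among the sites in all 3 lists, the least overlap between the oeControl and oeCTCF intervals was 287 bp, and the next was the full 400 bp of a peak. An oeCTCF peak lay within 400 bp of 51 members and within 1 kb of 521 (7.50%). The median distance was 10158 bp, and 408 members (5.87%) were over 100 kb from any oeCTCF peak. For 6943 of the 6945 members the interval was identical in the oeControl and the oeCTCF_shsmarca5 list. Membership thus turned mainly on whether a peak was listed, not on the bases of overlap, and the threshold for listing a peak is not known.

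In the 12 lists outside the rule, the share of members found was highest in the sorted intermediates and lower in the GFP+ cells. With overlapping peaks merged, these lists ran from 213386 peaks for Thy1+ cells with shCTCF to 43618 for unsorted day 12 cells with shLuci. The sorted shLuci lists ran from 194446 for Thy1+ to 91337 for GFP+ cells. Each share is therefore set beside that of all day 10 sites in the same list. With shLuci the share held was 44.8% at day 0 (43.7% to 46.0%), 79.3% for Thy1+ (78.4% to 80.3%), 75.1% for SSEA1-Thy1- (74.1% to 76.1%), 66.9% for SSEA1+ (65.8% to 68.0%) and 30.4% for GFP+ cells (29.3% to 31.4%). The same shares over all day 10 sites were 59.1%, 81.2%, 80.1%, 76.7% and 66.1%. Members were thus close to all sites in Thy1+ cells and far under them in GFP+ cells. With shCTCF members were held at 45.3%, 83.8%, 79.1%, 83.2% and 36.3%, against 59.0%, 84.9%, 81.8%, 83.9% and 69.0% of all sites. At day 12 they were held at 14.3% with shLuci and 15.2% with Smarca5 shRNA, against 39.7% and 40.2%.

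Other classes of oeControl sites were distributed differently over the same lists. In GFP+ shLuci cells, sites in all 3 day 10 lists were held at 77.0%, sites missing only with Smarca5 shRNA at 79.2% and sites of the oeControl list only at 47.3%, all above the 30.4% of members. In Thy1+ shLuci cells members stood at 79.3%, above the oeControl-only sites at 59.8% and the sites missing only with Smarca5 shRNA at 66.6%, and under the sites in all 3 lists at 90.7%. Members therefore did not have the lowest share in each list, and the order of the classes changed between the Thy1+ and the GFP+ lists. Away from starts, over 1 kb from any, the GFP+ shares were 30.1% for members, 71.8% for sites in all 3 lists and 47.1% for oeControl-only sites, so the order was the same without promoters. No test of these differences between classes is possible with 1 list per group.

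**Figure D1:**
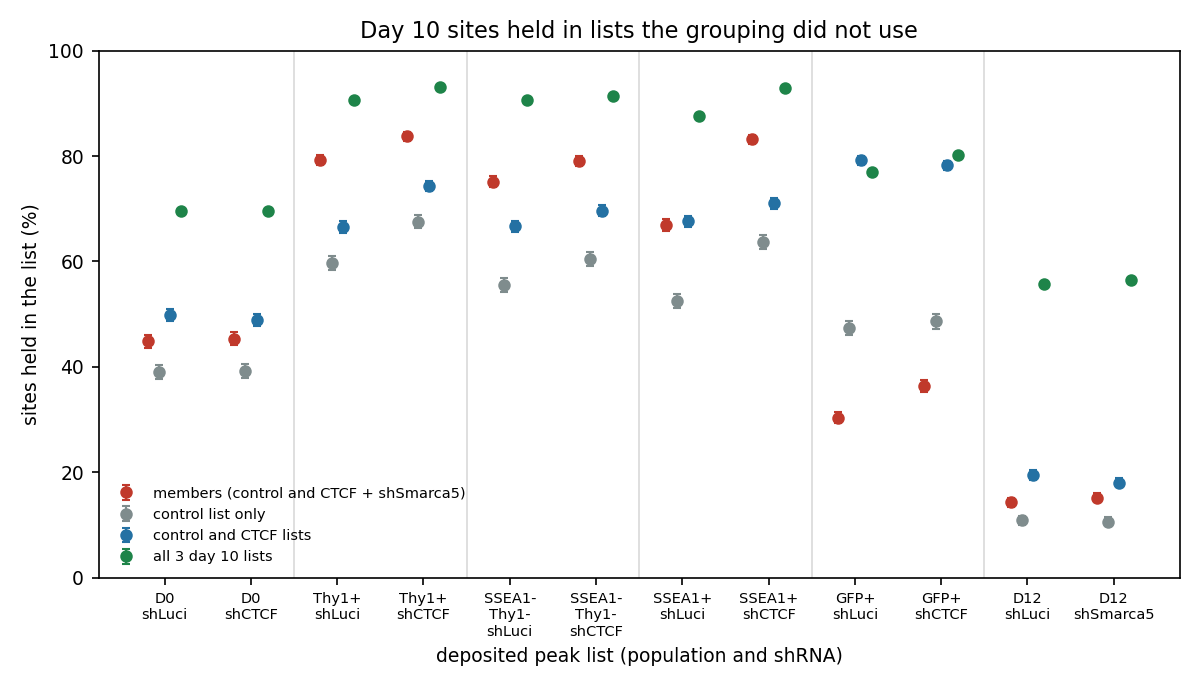
Share of day 10 sites held (vertical axis, percent) in each of the 12 peak lists that the rule did not use (horizontal axis), for members (red), oeControl-only sites (grey), sites missing only with Smarca5 shRNA (blue) and sites in all 3 day 10 lists (green), with exact 95% intervals over sites as bars. Members lie at 79.3% in Thy1+ shLuci cells and at 30.4% in GFP+ shLuci cells, where they are the lowest of the 4 classes.

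Followed site by site over the 5 shLuci populations, the most frequent pattern was presence in all 3 intermediates with absence from day 0 and GFP+ cells, seen for 1527 members (22.0%, 21.0% to 23.0%). The same pattern held for 6.09% of sites in all 3 day 10 lists, 9.49% of oeControl-only sites, 1.93% of sites missing only with Smarca5 shRNA and 7.93% of all day 10 sites. A further 978 members (14.1%) were in the day 0 list and every intermediate but not in GFP+ cells, and 613 (8.83%) were in day 0, Thy1+ and SSEA1-Thy1- only. All 5 populations held 879 members (12.7%), against 55.5% of sites in all 3 lists. None of the 5 held 845 members (12.2%), against 9.92% of all day 10 sites and 21.9% of oeControl-only sites. GFP+ cells alone held 88 members (1.27%), against 2.49% of all day 10 sites, 0.85% of sites in all 3 lists, 1.29% of oeCTCF_shsmarca5-only and 7.32% of oeControl-only sites.

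Counted together, 3972 members (57.2%, 56.0% to 58.4%) were in at least 1 intermediate and not in GFP+ cells. This share was 18.5% for sites in all 3 lists, 30.3% for oeControl-only sites, 8.60% for sites missing only with Smarca5 shRNA and 23.8% for all day 10 sites. The pattern was not limited to members. The 4178 sites found in the oeCTCF_shsmarca5 list only, which are absent from the control, had 55.6% (54.1% to 57.2%) in this class and 21.0% in all 3 intermediates alone, and GFP+ shLuci cells held 19.2% of them. Presence in the oeCTCF_shsmarca5 list without the oeCTCF list was common to both sets.

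**Figure D2:**
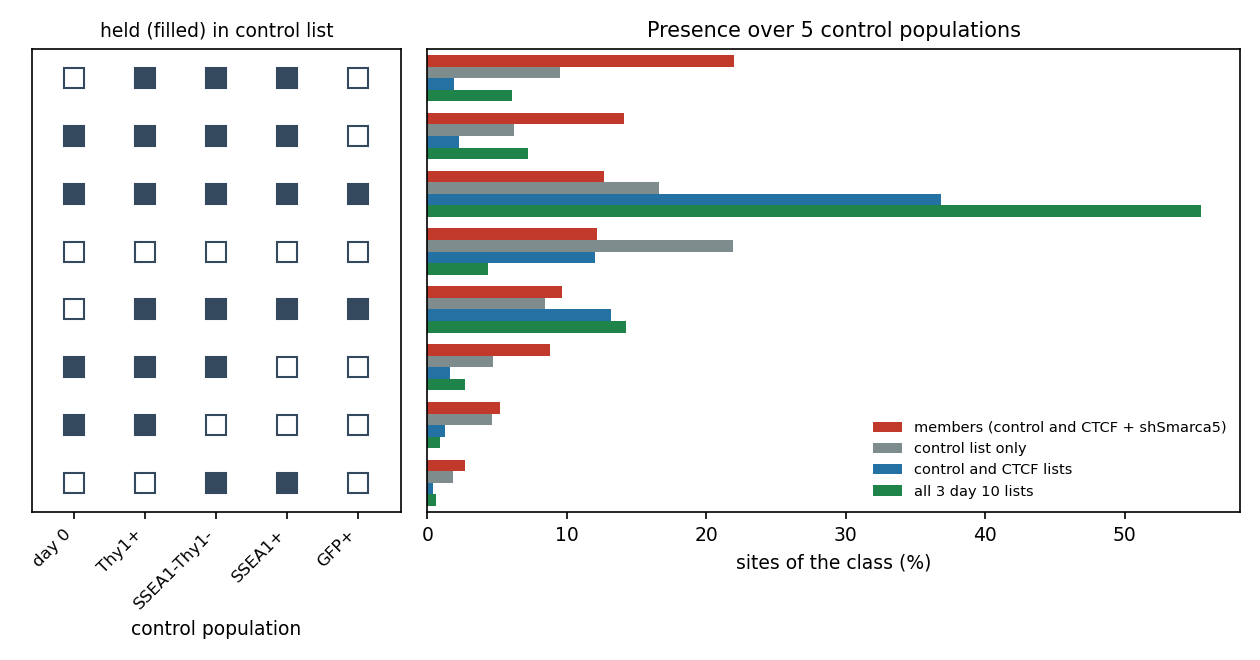
The 8 most frequent patterns of presence of members over the 5 shLuci populations: filled squares (left) mark populations that held the site, and bars (right) give the share of each class with that pattern, in percent. The first row, all 3 intermediates and neither end, holds 22.0% of members, and the third row, all 5 populations, holds 12.7% of members and 55.5% of sites in all 3 day 10 lists.

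The CTCF shRNA lists asked the opposite question, whether sites missing with more CTCF were found more often with less of it. The share of members held was higher with shCTCF than with shLuci in all 5 pairs: by 0.50 percentage points at day 0, 4.45 for Thy1+, 3.95 for SSEA1-Thy1-, 16.3 for SSEA1+ and 5.93 for GFP+ cells. The mean was 6.23 percentage points ± 5.97 (SD, n = 5 pairs), with an exact two-sided sign-flip permutation p = 0.0625, the smallest that 5 pairs allow, and p = 0.0938 after Benjamini-Hochberg adjustment over 3 measures. The lists themselves were longer with shCTCF in each pair, by a ratio of 1.00 at day 0, 1.10 for Thy1+, 1.08 for SSEA1-Thy1-, 1.35 for SSEA1+ and 1.13 for GFP+ cells, and their part in the result was not tested.

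Set against other sites of the same lists, the gain was smaller. Relative to sites in all 3 day 10 lists members gained 3.95 percentage points ± 4.13 (SD, n = 5), above 0 in 5 of 5 pairs (exact permutation p = 0.0625, adjusted p = 0.0938). Sites in all 3 lists had less room to gain. Thy1+ and SSEA1+ shLuci cells already held 90.7% and 87.7% of them, against 79.3% and 66.9% of members. The part of this in the difference was not tested. Relative to oeControl-only sites members gained 1.15 ± 3.64 (SD, n = 5), above 0 in 3 of 5 pairs (exact permutation p = 0.4375, adjusted p = 0.4375), so the gain did not differ from that of other sites missing with CTCF beyond the spread of the pairs. None of the 3 measures passed 0.05, which this design cannot reach. The SSEA1+ pair carried much of the size: without it the 3 means were 3.71, 2.17 and 0.17 percentage points, and without the GFP+ pair the last was 0.28. In SSEA1+ cells 1274 members were in the shCTCF list only and 142 in the shLuci list only, whereas at day 0 the counts were 193 and 158.

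Smarca5 knockdown without CTCF overexpression could be read from the day 12 lists. Members were held at 14.3% (13.5% to 15.1%) with shLuci and 15.2% (14.3% to 16.0%) with Smarca5 shRNA, a difference of 0.91 percentage points. Of the 195 members in exactly 1 of both lists, 129 were in the Smarca5 shRNA list, which is 66.2% (59.0% to 72.8%). Sites in all 3 day 10 lists gave nearly the same split, 1042 of 1625 (64.1%), and all day 10 sites 57.8%. For sites missing only with Smarca5 shRNA at day 10 it was 34.5% (29.5% to 39.6%), and for oeControl-only sites 45.9% (38.3% to 53.7%), which includes an even split. The interval of members included the share of the sites in all 3 lists. No p-value is possible with 1 list a group.

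Members lay away from gene starts. Within 1 kb of a protein-coding RefSeq start were 158 members, 2.27% (1.94% to 2.65%), against 22.0% of sites in all 3 lists, 6.14% of sites missing only with Smarca5 shRNA and 2.36% of oeControl-only sites. The median distance to a start was 63.2 kb for members, 64.3 kb for oeControl-only sites, 37.6 kb for sites missing only with Smarca5 shRNA and 24.1 kb for sites in all 3 lists. Sites of the oeCTCF_shsmarca5 list only had 2.37% within 1 kb of a start and a median distance of 59.7 kb, so members were close to these and to oeControl-only sites in their distance to starts. Gene bodies, with exons and introns not separated, held 51.2% of members (50.0% to 52.4%), 64.5% of sites in all 3 lists and 45.2% of oeControl-only sites (43.8% to 46.5%). Over 50 kb from any protein-coding gene lay 23.6% of members (22.6% to 24.6%), 11.5% of sites in all 3 lists and 26.3% of oeControl-only sites (25.1% to 27.5%).

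The 158 members near a start differed from the rest in some lists and not in others. At day 0 shLuci cells held 60.1% of them (52.0% to 67.8%) and GFP+ shLuci cells 41.1% (33.4% to 49.2%), against 44.5% and 30.1% of the 6787 members farther away. In both Thy1+ lists, both SSEA1-Thy1- lists and SSEA1+ cells with shCTCF the share was lower near a start, as in Thy1+ shLuci cells at 74.7% (67.2% to 81.3%) against 79.4%.

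Protein-coding genes with a member in the body or within 10 kb numbered 3568 of 21887, which is 16.3%. Most, 2703, had 1 member, 580 had 2, and 285 had 3 or more. The 15 genes with most members, 109 members in all, were long genes, from 187 to 2241 kb against a median of 17.2 kb over all protein-coding genes, and long genes have more room for sites. The 15 did not share 1 function. Zbtb20, a zinc finger repressor on chromosome 16 (42875689 to 43634392), had 10 members, with 40 sites in the oeControl, 30 in the oeCTCF and 40 in the oeCTCF_shsmarca5 list. Zfp536, a zinc finger repressor of neuronal differentiation on chromosome 7 (37318023 to 37774039), had 9, with 27, 19 and 26 sites. Arid5b, a DNA-binding chromatin cofactor on chromosome 10 (68092523 to 68279355), had 8 in its 187 kb, with 25, 16 and 27 sites.

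Others of the 15 encode proteins of cell adhesion, matrix and signalling. Lpp, a LIM protein of focal adhesions, had 7 members (23, 17 and 22 sites in the 3 lists), Adamtsl1, a secreted matrix protein, 7 (25, 23 and 29), and Sgcd, delta-sarcoglycan, 6 (15, 11 and 15). Ltbp1, which holds latent TGF-beta in the matrix, had 6 (19, 16 and 22). Ctnnd2, delta-catenin, and Plce1, a phospholipase C, had 7 each, and so had Dlg2, a synaptic scaffold. Plcb1, another phospholipase C, Cdk14, a cyclin-dependent kinase, and Cntnap2, a neurexin family member, had 6 each. Macrod2, an ADP-ribose hydrolase, had 9, and Arhgap26 had 8. In each of the 15 genes the oeCTCF list held the fewest sites, which follows in part from how the genes were chosen.

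**Figure D3:**
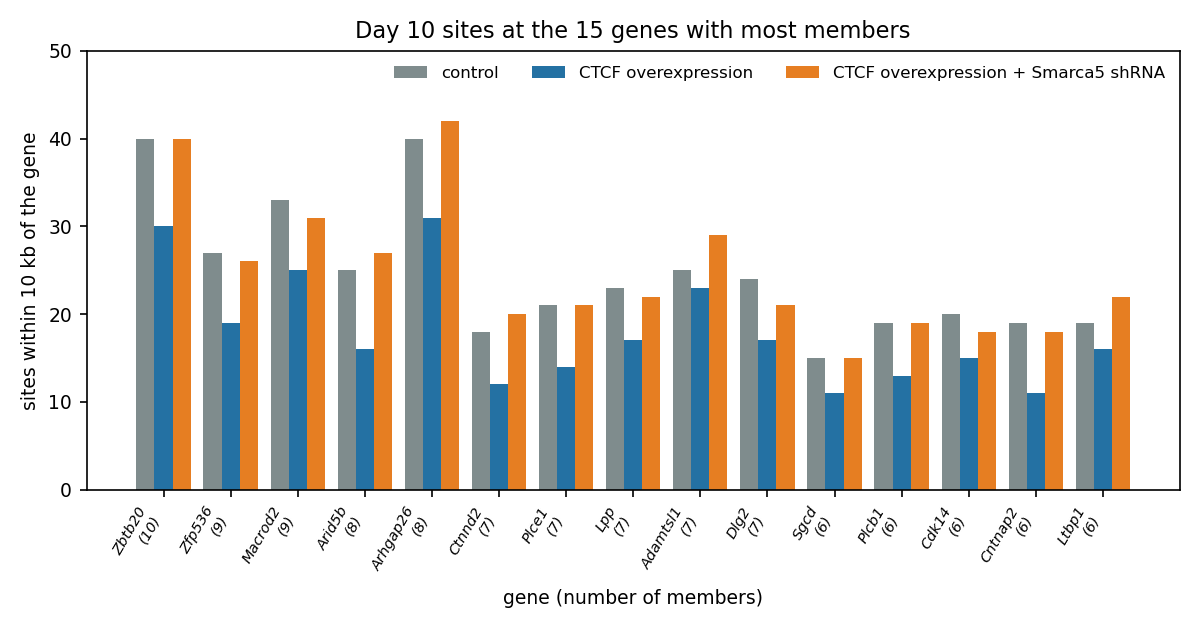
Number of sites within 10 kb (vertical axis) in the oeControl (grey), oeCTCF (blue) and oeCTCF plus Smarca5 shRNA (orange) list for the 15 protein-coding genes with most members (number of members in brackets). At Zbtb20 the lists hold 40, 30 and 40 sites.

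In the lists outside the rule these 109 members were held at shares near those of all members, apart from a lower share in GFP+ cells. With shLuci, 46 (42.2%) were held at day 0, 90 (82.6%) by Thy1+, 88 (80.7%) by SSEA1-Thy1-, 71 (65.1%) by SSEA1+ and 20 (18.3%) by GFP+ cells, where all members stood at 44.8%, 79.3%, 75.1%, 66.9% and 30.4%. The genes differed in when their members were seen. At Adamtsl1 2 of 7 members were in the day 0 list, 6 in the Thy1+, 5 in the SSEA1-Thy1-, 5 in the SSEA1+ and none in the GFP+ shLuci list, and 4 followed the pattern of all 3 intermediates alone. At Plce1 6 of 7 were in the day 0 and the Thy1+ lists, 4 in SSEA1-Thy1- and none in SSEA1+ and GFP+ shLuci cells. With CTCF shRNA the SSEA1+ list held 5 of the 7 Plce1 members. At Zfp536, all 9 members were in the Thy1+ and the SSEA1-Thy1- lists, 8 in SSEA1+ and 3 in GFP+ shLuci cells. At Macrod2, 4 of 9 were in the Thy1+ shLuci list and all 9 in the Thy1+ shCTCF list.

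Among 15 gene lists, only the epithelial list had a share of members whose interval lay off the share over all genes. The measure is the share of oeControl sites in or within 10 kb of a list's genes that were members, 8.22% of 52512 sites over all protein-coding genes. The lists were written with results of these data known, so their direction is no independent evidence. Around 40 fibroblast and mesenchymal genes 18 of 156 sites were members, 11.5% (6.98% to 17.6%), at 12 genes. Around 31 pluripotency genes it was 4 of 121, 3.31% (0.91% to 8.25%), at 3 genes, and around 20 epithelial genes 1 of 94, 1.06% (0.03% to 5.79%), at Cldn4, a claudin of tight junctions. The intervals of the fibroblast and the pluripotency list include 8.22%, so neither is a result about members. The interval of the epithelial list ends under 8.22%, but distance to starts was not taken into account. Within 1 kb of a start lay 2.3% of members and 22.0% of sites in all 3 day 10 lists. The epithelial genes were short, with a median of 9.54 kb against 17.2 kb over all protein-coding genes. The keratinocyte genes were shorter still (4.87 kb), with a share of 15.6%. The part of distance to starts in the epithelial share was not tested. The keratinocyte and haematopoietic lists lay higher than the fibroblast list, and the cell cycle arrest list lay as low as the pluripotency and epithelial lists.

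**Figure D4:**
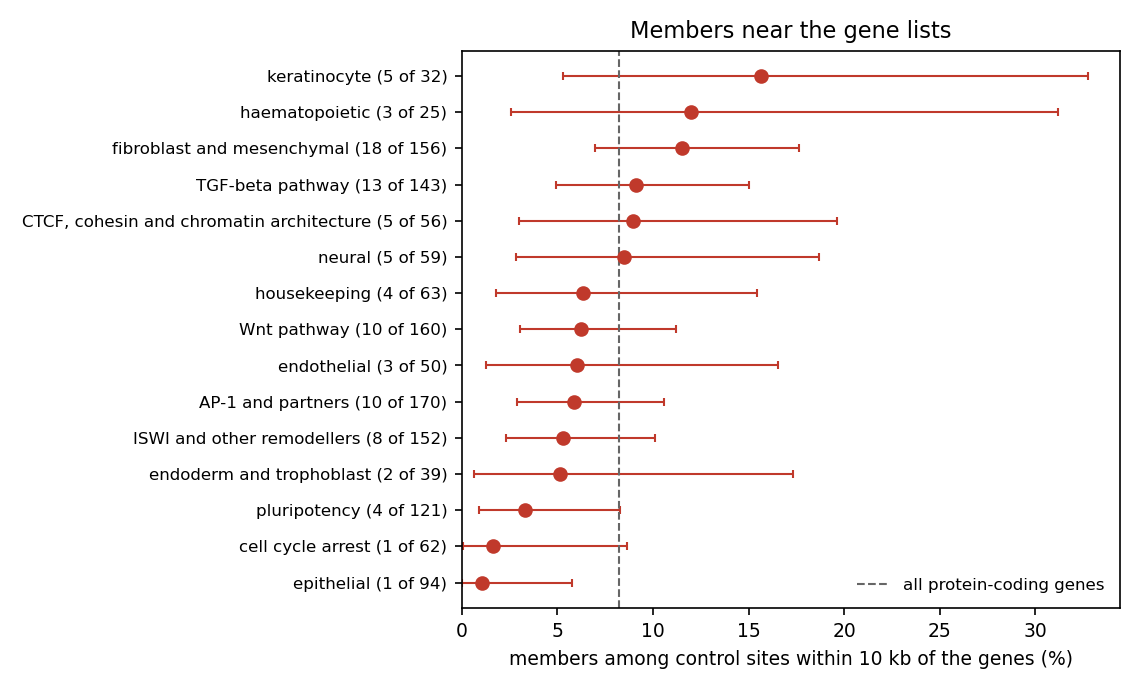
Share of oeControl sites within 10 kb of each list's genes that were members (horizontal axis, percent), with members of oeControl sites in brackets, exact 95% intervals over sites as bars and the share over all protein-coding genes, 8.22%, as a dashed line. The epithelial list, at 1.06%, is the only one of the 15 whose interval lies wholly under the line, and no interval lies wholly above it. The intervals are not adjusted for the number of lists.

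Of the 18 members at fibroblast genes, the shLuci lists held 11 at day 0, 14 for Thy1+, 12 for SSEA1-Thy1-, 8 for SSEA1+ and 3 for GFP+ cells, which is 61.1%, 77.8%, 66.7%, 44.4% and 16.7%, against 44.8%, 79.3%, 75.1%, 66.9% and 30.4% of all members. SSEA1+ cells with CTCF shRNA held 14 (77.8%, against 83.2% of all members). Cdh2, N-cadherin of the mesenchymal cell surface, on chromosome 18 (16588877 to 16809246), had 4 members, all in the gene body. Around it lay 13 sites in the oeControl, 7 in the oeCTCF and 10 in the oeCTCF_shsmarca5 list. All 4 were held at day 0 and in Thy1+ cells, 2 in SSEA1-Thy1- and none in SSEA1+ and GFP+ shLuci cells, while SSEA1+ shCTCF cells held all 4.

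Prrx1, a mesenchymal homeobox factor, had 2 members, and 7, 4 and 7 sites in the 3 lists. One of them, at chromosome 1, 163314116 to 163314515, lay 0.47 kb from a start of the gene and 1.745 kb from an oeCTCF peak, and was held in 10 of 12 lists, all but both GFP+ lists. The other was held in none. Tcf4, a basic helix-loop-helix factor, had 2 members (13, 10 and 15 sites), neither of them in the GFP+ lists. Pdgfra, a growth factor receptor of fibroblasts, had 2, with 6, 5 and 3 sites, so fewer sites were listed with Smarca5 shRNA than with CTCF overexpression alone.

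At the pluripotency genes, L1td1, an RNA-binding protein of pluripotent cells, had 2 members downstream of the gene, both held in both GFP+ lists. Its sites numbered 6, 4 and 6. Tfcp2l1, a transcription factor of the naive state, had 1 member 2.11 kb from a start, held in 6 of 12 lists and in the GFP+ list with shCTCF only. Prdm14, a regulator of the germ line and naive pluripotency, had 1 that none of the 12 lists held. No member lay within 10 kb of Pou5f1, Nanog, Sox2 or Esrrb, core factors of the pluripotency network, or of Ctcf and Smarca5 themselves. Most genes had none, since 16.3% of all protein-coding genes had a member within 10 kb. The fibroblast genes Col1a1, Fn1 and Thy1 had none either, so the absence is not particular to these factors.

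Signalling and AP-1 lists lay on either side of the share over all genes. Around 25 genes of the TGF-beta pathway 13 of 143 sites were members (9.09%, 4.93% to 15.0%), 6 of them at Ltbp1 and 2 at Tgfbr3, the co-receptor betaglycan. Smad3, a signal transducer of the pathway, had 1 and Smad5, which acts for bone morphogenetic proteins, 1. Around 25 Wnt genes it was 10 of 160 (6.25%), with 2 each at Wnt5a, a ligand of the non-canonical pathway, and Tcf7l2, a nuclear effector of beta-catenin. Both Wnt5a members were held in every day 0 and sorted list but those of GFP+ cells, where 1 of them was held. Around 26 genes of AP-1 and its partners it was 10 of 170 (5.88%), of which 4 lay at Runx2, a runt factor of the bone lineage (15, 10 and 15 sites). At Runx2 no member was in a day 0 list, and Thy1+, SSEA1-Thy1- and SSEA1+ cells held 3 of 4 with either shRNA.

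Genes of CTCF, cohesin and chromatin architecture had 5 members among 56 sites (8.93%, 2.96% to 19.6%), and those of ISWI and other remodellers 8 of 152 (5.26%, 2.30% to 10.1%). Among these Rsf1, which partners Smarca5 in a remodelling complex, had 3 members (8, 5 and 9 sites), all held in every intermediate list and none in GFP+ shLuci cells. Baz2b, a bromodomain protein of ISWI complexes, had 2. Pds5a, a regulator of cohesin, had 2, and the cohesin subunit genes Stag1 and Stag2 had 1 each. Satb1, a chromatin organiser, had 1.

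Markers of other cell types held members too. These were 3 of 25 sites for haematopoietic genes (12.0%), 3 of 50 for endothelial, 5 of 59 for neural (8.47%), 5 of 32 for keratinocyte (15.6%) and 2 of 39 for endoderm and trophoblast genes (5.13%), and each interval included 8.22%. Housekeeping genes had 4 of 63 (6.35%) and genes of cell cycle arrest 1 of 62 (1.61%). Peaks near these genes do not show that such cells were present, and fewer cells with an open site and less opening per cell cannot be told apart in bulk libraries. Among them Map2, a neuronal microtubule protein, had 3 members (7, 4 and 9 sites), Itga6, an integrin of basal keratinocytes, 2, and Dsg3, a desmosomal cadherin, 2. The Tal1 member, at a start of this haematopoietic factor, was held in none of the 12 lists.

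At the starts themselves, the 103 promoter windows over members belonged to 97 genes, 49 of them protein-coding. Their mean GC content was 49.5% ± 9.72 (SD over windows), against 62.4% ± 8.79 for windows over sites in all 3 lists, 50.8% for oeControl-only sites, 58.6% for sites missing only with Smarca5 shRNA, 47.6% for windows with no day 10 site and 53.8% for all windows. The median number of CpG dinucleotides was 5, the same as over oeControl-only sites, against 22 over sites in all 3 lists, 3 in windows with no day 10 site and 7 over all windows.

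The AP-1 site TGANTCA, bound by Jun and Fos proteins and frequent in fibroblast enhancers, occurred in 17 of the 103 windows (16.5%, 9.92% to 25.1%), in 14.2% of windows over oeControl-only sites, 4.99% over sites in all 3 lists, 9.72% with no day 10 site and 7.81% of all windows. The CTCF core, CCA and AG and GGC each apart by any 2 bases, occurred in 1 window (0.97%, 0.02% to 5.29%). This window was at Limch1, a LIM and actin-binding protein named after its value was seen. The share was 6.38% over oeControl-only sites, 3.27% over sites in all 3 lists and 2.43% of all windows. The interval of members includes the last 2 of these shares. The octamer occurred in 5 (4.85%, 1.59% to 10.97%), against 2.84% over oeControl-only sites and 1.74% of all windows. Its interval includes both. The TEAD site occurred in 18 (17.5%), against 22.0% over oeControl-only sites and 14.7% of all windows. For the RUNX site TGTGGTT it was 4 (3.88%), against 4.96% over oeControl-only sites and 5.27% of all windows. For the KLF site GGGNGTGG it was 21 (20.4%), against 14.2% over oeControl-only sites and 17.6% of all windows. Both strands were searched, and windows differ in base composition between the classes. All 300 bases of a window were searched, so a match can lie outside the member. At Kcnab1, for example, 7 bases of the window lay in the member. Some genes, such as Zfp951, gave overlapping windows over the same member, so the windows are not independent. A match is a description of the letters, not of binding.

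Of the genes whose sequence is shown, the Shroom4 site was held at day 0 and in Thy1+ cells with either shRNA, and in SSEA1-Thy1-, SSEA1+ and GFP+ cells with shCTCF only. The sites of Mtmr2 and of Rpe65, the retinal isomerase of the visual cycle, had the same record: all 6 lists of the intermediates, GFP+ cells with shCTCF, and neither day 0 nor GFP+ cells with shLuci. The Cntn6 site was held in the 6 intermediate lists and at day 0 with shLuci. Its nearest oeCTCF peak was 103 kb away. The Lrrc17 site, and that of the zinc finger gene Zfp951, 286 kb from any oeCTCF peak, were held in all 12 lists. Fbxw10, an F-box protein, and Gm45623 had sites held in 10. Kcnab1, a subunit of potassium channels, and the olfactory receptor gene Olfr881 had sites held in 8.

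Among microRNAs, 14 of 1005 hairpins (1.39%) lay within 1 kb of a member, at 12 sites. The Mir199a-2 hairpin on chromosome 1 (162217814 to 162217923) lay inside the member at 162217566 to 162217965, which was held in 11 of 12 lists, all but the GFP+ shLuci list. The Mir199a-1 hairpin on chromosome 9 (21496495 to 21496564) lay 68 bp from a member held in 11 of 12, all but the SSEA1+ shLuci list. These sites were thus open in nearly every population and missing from the oeCTCF list. The member beside the miR-200c and miR-141 genes, on chromosome 6 (124718914 to 124719313), lay 524 and 929 bp from the 2 hairpins and was held in the day 12 shLuci list alone of the 12.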

How the data were processed

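The 32 samples fall into 15 groups by title, source name and description, and the descriptions tie each group to 1 deposited peak list. The deposited lists give peak positions (intervals of 400 bp) with a score of 0 throughout, so no height or p-value per peak was used. The tools, per the submitters' processing notes, were MACS2, Bowtie2, Picard, SAMtools, FastQC, cutadapt and Trim Galore, and the builds mm10 and GRCm38. How samples were pooled, the versions and thresholds, and any read shift for the transposase are not stated in the sources used here. A list from deeper or more libraries can be longer. Depth per sample is unknown.

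From these positions, overlapping intervals were merged, and membership, presence in the 12 other lists (overlap of at least 1 bp), distances and gene counts were computed with Python 3.11.15, numpy 2.4.6, pandas 2.3.3 and scipy 1.17.1. The day 10 lists, the day 12 lists and the day 0 and sorted lists hold different sets of peak positions, and lists differ in length, so each share of members is given beside that of other sites in the same list. A change of 1 share between lists is not corrected for list length. The interval code was tested on simulated intervals, where 22 of 22 comparisons with direct counting were equal. The exact sign-flip test ran over 5 pairs of lists. Genes, starts and promoter sequences are RefSeq's for GRCm38.p6: 21887 protein-coding genes were used, 17492 had a promoter window, and all 298 list genes were matched. Starts were used in place of gene ends because the promoter table gives the strand.

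The members and gene lists were chosen with earlier results of these data known. Named genes are, per list, the 4 with most members within 10 kb, the 15 protein-coding genes with most members, the genes beside the 5 longest runs of members, and up to 10 genes with a member at a start and no oeCTCF peak within 10 kb. Alternatives were a 200 bp overlap, no oeCTCF peak within 1 kb, autosomes only, other gene windows, leaving out each pair and, chosen after seeing the data, sites over 1 kb from any start. Sequences of members away from starts were not analysed here.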

Additional observations from a re-analysis of the deposited data

Results flagged for a closer look

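The CTCF shRNA gain of members over sites in all 3 day 10 lists was uneven between the pairs. It was 11.1 percentage points in SSEA1+ cells and 0.51 to 3.28 in the other 4 pairs, and the gap to the nearest pair took up 0.738 of the whole range, above Dixon's critical value of 0.71 for 5 values. Chance alone exceeds that value in about 1 in 20 such sets, and 3 sets were examined. In the same pair the whole list grew from 135749 merged peaks with shLuci to 183640 with shCTCF, the largest ratio of the 5 pairs (1.35). The part of list length in this value was not tested.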

How the results depend on the processing

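No result reversed under any alternative, and 152 of 175 values were classed as the same as the main value. For the mean CTCF shRNA gains this class rested on exact sign-flip p-values and a threshold that 5 pairs cannot reach, not on counting error. It could not register a change in size, such as 1.15 to 0.17 percentage points relative to oeControl-only sites without the SSEA1+ pair. Requiring the oeControl and oeCTCF_shsmarca5 intervals to overlap by 200 bp kept all 6945 members, so those values could not differ. When a site had to overlap a peak by 200 bp to be held, the shares of members held were 40.4% (shLuci) and 40.8% (shCTCF) at day 0, 72.2% and 76.1% for Thy1+, 68.6% and 72.0% for SSEA1-Thy1-, 60.9% and 75.8% for SSEA1+, 26.9% and 32.6% for GFP+ cells, and 12.3% (shLuci) and 13.0% (Smarca5 shRNA) at day 12, and 52.4% of members were in an intermediate and not in GFP+ cells. With members limited to sites with no oeCTCF peak within 1 kb, 1.18% lay within 1 kb of a start and 15.0% of protein-coding genes had a member. The share of genes was 11.5% for gene bodies alone and 31.9% within 50 kb, and 4.45% of members lay within 2.5 kb of a start. Of 60 values for gene lists 55 were the same, and within 50 kb the number of genes with a member was 10 for pluripotency, 19 for fibroblast and 6 for epithelial genes, while gene bodies alone left 0 pluripotency and 0 epithelial genes. Leaving out each pair in turn gave mean CTCF shRNA gains of 3.71 to 7.66 percentage points for members, 2.17 to 4.81 relative to sites in all 3 lists and 0.17 to 2.27 relative to oeControl-only sites. No paired analysis was possible because replicate numbers are shared in the labels but each group has 1 list for all its samples, and for the same reason no replicate could be left out.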

Other observations

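Members occurred on all chromosomes but Y, where the oeControl list held 8 sites. They made up 7.33% of the oeControl sites on chromosome 7 (6.59% to 8.13%) and 7.72% on chromosome 11, and 11.4% on chromosome 18 (10.1% to 12.8%), 11.2% on chromosome 1 and 10.99% on X. By the rule members are part of the oeControl sites missing from the oeCTCF list, so the shares of both are linked. The missing share was 13.2% on chromosome 7, 19.5% on chromosome 18 and 21.0% on X.

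Of the members 5475 (78.8%) had no other member next to them among the day 10 sites, against 80.4% of oeControl-only sites and 75.2% of sites missing only with Smarca5 shRNA by the same count. In addition 577 pairs, 79 runs of 3 and 18 longer runs followed each other with no other day 10 site between. The 5 longest runs, with ties taken by the shorter span, were 3 of 6 members, 1 of 5 and 1 of 4. A run of 6 on chromosome 2 (51177555 to 51305169) lay 28.4 kb from Rnd3. Of the members of this run, shLuci cells held 5 at day 0, 5 among Thy1+, 4 among SSEA1-Thy1-, 2 among SSEA1+ and 2 among GFP+ cells, and the day 12 lists 4 and 5. A run of 6 on X (35928547 to 36092548) overlapped Dock11, an activator of Cdc42, with 6 of 6 in Thy1+ and none in GFP+ shLuci cells. A run of 6 on chromosome 3 (120020334 to 120551745) lay 236 kb from the nearest protein-coding gene, Ptbp2, a splicing factor, with 6 in Thy1+ and SSEA1-Thy1-, 4 in SSEA1+ and 1 in GFP+ shLuci cells. The run of 5 on chromosome 5 (59925235 to 59977380) was 1792 kb from its nearest gene, Pcdh7, a protocadherin, and GFP+ shLuci cells held 3 of the 5. The run of 4 on chromosome 2 (160793168 to 160815712) lay in Zhx3, a zinc finger and homeobox factor, and neither GFP+ list held any of it.

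At 5 genes every oeControl site within 10 kb, 2 each, was missing from the oeCTCF list and both were members. They were the chemokine receptor gene Ccr6, the desmosomal cadherin gene Dsg3, the fatty acid receptor gene Ffar3, Ftdc1, and Ifnb1, which encodes interferon beta. These 5 of the 21887 protein-coding genes were picked after their values were seen. How many genes had 2 oeControl sites was not counted. No share of such genes can therefore be set beside the 9.59% of all oeControl sites that were members.

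None of the 12 lists outside the rule held 779 members (11.2%), against 9.02% of all day 10 sites, and all 12 held 161 (2.32%), against 26.4%.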
